A study of Mus musculus with 2 samples.

Results

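The forkhead transcription factors were taken as the rows of the read count table whose symbol is Fox followed by 1 subfamily letter from a to s and a number. This gave 44 of 24061 rows, in 19 subfamilies, and 25 of the 44 had at least 20 counts summed over both libraries. RNA was sequenced from C57BL/6 mouse embryonic stem cells grown on mouse embryonic fibroblast feeder cells in medium with knockout serum replacement and leukaemia inhibitory factor. One library is labelled mES-control (passages 17 to 23) and 1 is labelled mES-Pc4-OE (passages 24 to 37), so the label and the passage cannot be told apart. The design text describes 3 lines that overexpress Pc4, a transcriptional coactivator encoded by Sub1, each from picked colonies that carried a Venus-expressing lentivirus. The labels do not say which line gave the library, what drives Pc4, whether the control cells carried a virus, or whether feeder cells were removed.

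Forkhead proteins share a winged-helix domain of which one helix lies in the major groove of DNA. The family includes pioneer factors that open chromatin, effectors of insulin signalling (FoxO), a SMAD partner in Nodal signalling (FoxH1) and regulators of mitosis (FoxM1). In embryonic stem cells Foxd3 is known for its role in maintaining pluripotency, and an embryonic stem cell splice form of Foxp1 is known to favour pluripotency genes.

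Of the 25 measured forkhead genes, 3, among them Foxc2 and Foxc1, were at least 2-fold higher in the Pc4-OE-labelled library, and Foxd3 was at least 2-fold lower. The other 21 did not reach a 2-fold difference. Over all 14213 genes with at least 20 counts, 11.8% were at least 2-fold higher and 4.02% at least 2-fold lower, so the 3 of 25 and 1 of 25 lie near the background (15.8% in either direction). Among the 16 forkhead genes with at least 100 counts summed, 0 were higher and 1 was lower, beside 9.41% and 3.15% of all genes at that depth (12.6% either way). Among the 9 with 20 to 99 counts, 3 were higher and 0 lower, beside 22.4% and 8% of all genes (30.4% either way). At 1.5-fold, 4 of 25 were higher and 5 lower, beside 18.8% and 13.2% (32% either way). Counts are reads assigned to a gene, and CPM are those counts scaled to library size with TMM factors. Ratios are Pc4-OE over control. The 2-fold rule asks for a ratio of 2 or more, or of its inverse, and a 95% interval that leaves out 1. Intervals cover counting error only, and reads are not independent molecules. With 1 library per group there is no spread between cultures and no test, and every difference below is between these 2 libraries.

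The libraries held 10571463 counts (control) and 10194783 counts (Pc4-OE). Sub1 itself had 5522 counts under the control label and 2432 under the Pc4-OE label, 2.26-fold lower (interval 2.15 to 2.37), which goes against the label. Directions below are therefore those of the labels. Feeder cells are embryonic fibroblasts, and 19 of 24 fibroblast markers were at least 2-fold higher in the Pc4-OE-labelled library (11.8% of all genes). Their summed level went from 4942 to 12933 CPM, and none was at 0. The collagen gene Col1a1 had 7627 and 15896 counts and the matrix crosslinking enzyme gene Lox 1686 and 9039. Macrophage markers were higher for 14 of 15 measured genes (summed level 229.7 and 680.9 CPM, with Lyz1 at 0 under the control label), among them Gpnmb at 161 and 1438 counts. Pluripotent stem cell markers were lower for 2 of 12 (4.02% of all genes), with 0 higher (summed level 7082 and 5246 CPM, none at 0). The 2 were the RNA-binding protein genes L1td1 (7912 and 1905 counts) and Lin28a (3110 and 1531, log2 ratio -0.97 with library totals, which misses the rule). Of the 12, 4 had a ratio above 1 (5 with library totals), among them Fgf4 (2782 and 4034 counts) and Nanog (4452 and 5238), and Sox2 had 4800 and 4721. In a mixed culture, fewer cells of a type and less RNA per cell cannot be told apart.

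The family shares a conserved stretch, shown here for members the results turn on, to make visible what they have in common and where they differ. The 39 coding bases around the DNA-recognition helix were found in 42 of the 44 genes in the annotated coding sequences (GENCODE M21, GRCm38), Foxr1 and Foxr2 being the exceptions. Capitals mark the 7 positions that carry the same base in all 42, and each sequence runs 5′ to 3′ on the coding strand.
Foxc1, chr13:31807574-31807612, plus strand: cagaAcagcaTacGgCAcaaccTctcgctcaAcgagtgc
Foxc2, chr8:121116960-121116998, plus strand: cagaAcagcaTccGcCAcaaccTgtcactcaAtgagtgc
Foxd3, chr4:99657150-99657188, plus strand: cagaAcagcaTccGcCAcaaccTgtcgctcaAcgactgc
Foxh1, chr15:76669238-76669276, minus strand: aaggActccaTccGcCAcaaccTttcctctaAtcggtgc
Foxo3, chr10:42197866-42274818, minus strand: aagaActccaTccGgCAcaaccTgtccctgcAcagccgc
Foxo4, chrX:101255271-101258212, plus strand: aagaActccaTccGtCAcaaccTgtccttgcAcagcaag
Foxp4, chr17:47871316-47874637, minus strand: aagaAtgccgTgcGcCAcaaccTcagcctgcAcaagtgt
Pairs within a subfamily differed at a median of 5 of the 39 bases (39 pairs, from 0 for Foxd3 and Foxd4 to 12), and pairs across subfamilies at a median of 12 (822 pairs). In 14 genes, all of the FoxJ, FoxK, FoxM, FoxO and FoxP subfamilies, an intron splits the stretch, and their coordinates above span that intron. Of these 14, 12 were measured, and the 14 together held 83.2% of all forkhead counts in the control-labelled library and 82.7% in the Pc4-OE-labelled library. Of the 28 genes with an unsplit stretch, 11 were measured, and they include all 4 genes past the 2-fold rule, Foxc1, Foxc2 and Foxd3 among them. Over all genes with at least 20 counts, 15.8% passed the rule. Of the 4 forkhead genes, 3 had only 20 to 99 counts summed, a depth at which 30.4% of all genes passed. The split and unsplit genes differ in depth, so no link between the intron and the ratios can be read from these counts. The intron split was chosen for comparison after the counts were seen.

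Between the forkhead transcripts themselves little sequence was shared as identical stretches of 50 bases. Shorter or inexact matches were not searched. Stretches of 50 bases shared with another member occurred in 3 pairs, with 19 such stretches between Foxd3 and Foxd4 and 4 between Foxc1 and Foxc2. Overlap with other annotated genes was larger for a few members. On the opposite strand, A530084C06Rik covers 65.7% of the 50-base stretches of Foxq1. The annotated gene Gm20388 overlaps Foxf1, Foxc2 and Foxl1 on their strand. How the counting treated strand and shared reads is not stated, so the counts of Foxq1 and Foxp3 (13.9% shared with other genes) carry that uncertainty.

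Promoter sequence shows what else the genes share. RefSeq start sites (GRCm38.p6) were at hand for 28 of the 44 genes, as 33 windows of the 250 bases before the start. Windows are shown for Foxc1 and Foxd3, which passed the 2-fold rule in opposite directions, and for Foxo3 and Foxp4, well-counted genes whose ratios lay on opposite sides of 1. Capitals mark matches on either strand to the GC box GGGCGG, the CCAAT box CCAAT and the E-box CACGTG, none of which overlap in these windows.
Foxc1, chr13:31806396-31806645, plus strand: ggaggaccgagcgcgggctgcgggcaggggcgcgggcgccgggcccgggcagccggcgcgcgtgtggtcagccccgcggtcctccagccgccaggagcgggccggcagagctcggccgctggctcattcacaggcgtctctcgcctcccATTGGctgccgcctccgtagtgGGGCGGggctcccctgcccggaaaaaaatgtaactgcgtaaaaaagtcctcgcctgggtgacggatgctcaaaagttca
Foxd3, chr4:99656049-99656298, plus strand: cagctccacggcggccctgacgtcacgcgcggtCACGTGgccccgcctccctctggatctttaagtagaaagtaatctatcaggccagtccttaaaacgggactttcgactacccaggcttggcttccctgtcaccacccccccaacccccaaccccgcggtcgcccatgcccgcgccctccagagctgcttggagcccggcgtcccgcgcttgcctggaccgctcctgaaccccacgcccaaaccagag
Foxo3, chr10:42276696-42276945, minus strand: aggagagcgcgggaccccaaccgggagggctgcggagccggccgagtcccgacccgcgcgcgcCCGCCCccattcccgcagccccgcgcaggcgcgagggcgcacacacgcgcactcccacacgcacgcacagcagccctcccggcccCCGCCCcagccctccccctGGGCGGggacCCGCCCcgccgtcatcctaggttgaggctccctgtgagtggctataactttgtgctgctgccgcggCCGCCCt
Foxp4, chr17:47924633-47924882, minus strand: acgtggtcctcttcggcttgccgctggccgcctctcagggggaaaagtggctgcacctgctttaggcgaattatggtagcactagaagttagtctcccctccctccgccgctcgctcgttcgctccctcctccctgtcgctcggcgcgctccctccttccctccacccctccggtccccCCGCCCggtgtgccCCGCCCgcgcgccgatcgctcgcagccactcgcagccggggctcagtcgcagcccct
The Foxc1 window holds 29 CpG dinucleotides, a CCAAT box and a GC box, and that of Foxo3 holds 31 CpG and 5 GC boxes. The Foxp4 window holds 27 CpG and 2 GC boxes. That of Foxd3 has 21 CpG, none of the GC or CCAAT letters and the single CACGTG match among the 33 forkhead windows. Forkhead windows had a median of 16 CpG, against 6 over all 32851 windows. A GC box occurred in 69.7% of forkhead windows and 32.7% of all windows, a CCAAT box in 42.4% and 33.8%, and CACGTG in 3.03% and 6.02%. The forkhead core TGTTTAC, searched on both strands, occurred in 1 forkhead window, that of Foxa1 (3.03%, against 3.17% of all). No windows were at hand for Foxc2 and Foxh1. High CpG content was shared by genes with ratios on both sides of 1.

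**Figure D1:**
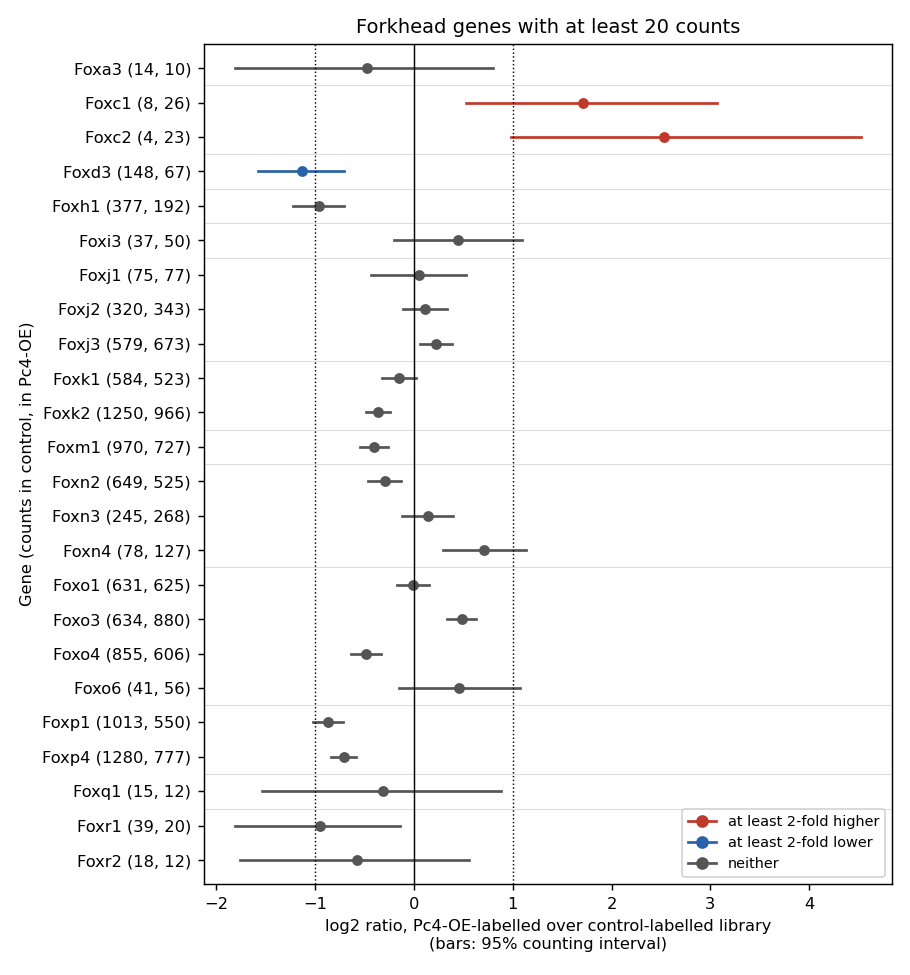
Ratio of 24 measured forkhead genes, as log2 of Pc4-OE over control on TMM-scaled levels, with the counts of both libraries in the axis labels and bars for the 95% counting interval. Foxc2 and Foxc1 lie to the right of the dotted 2-fold line on 4 to 26 counts per library, and Foxd3 lies to the left.

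The FoxC genes, which act in paraxial mesoderm, vessels and neural crest derivatives, were both higher in the Pc4-OE-labelled library. Foxc1 went from 8 to 26 counts, a 3.27-fold higher level (interval 1.44 to 8.36). Foxc2 went from 4 to 23 counts, 5.78-fold higher (interval 1.98 to 23.0). With 0.5 CPM added, the log2 ratios were 1.25 for Foxc1 and 1.62 for Foxc2, against 1.71 and 2.53 without. Relative to each other they could not be separated: the ratio of Foxc2 divided by that of Foxc1 was 1.77 (interval 0.404 to 9.04).

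Each FoxC gene sits in a small forkhead cluster. On chromosome 8 the cluster runs from Foxf1 at 121084386 through Foxc2 to Foxl1, which ends at 121130644. Foxf1, a factor of lateral plate mesoderm, had 0 and 7 counts, and Foxl1, a factor of gut mesenchyme, had 0 and 2. All 3 genes of that cluster had more counts in the Pc4-OE-labelled library, but only Foxc2 had at least 20 counts summed. The counts of Foxl1 lie within the floor of 3 counts. Gm20388 overlaps all 3 genes on their strand, so their reads are not shown to be independent. The 87 genes within 5 Mb of Foxc2 that averaged 5 CPM or more, and so were better counted, had a median log2 ratio of -0.10. On chromosome 13 the forkhead neighbours of Foxc1 did not have more counts in that library, with 15 and 12 for Foxq1 and 0 in both libraries for Foxf2. Foxs1, a factor of pericytes and related perivascular cells, had 2 and 6 counts. The fibroblast and macrophage markers given above lay in the same direction as Foxc1 and Foxc2, and their part in these differences was not tested.

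Foxd3 was the one forkhead gene past the rule in the lower direction. It had 148 counts under the control label and 67 under the Pc4-OE label, or 14.2 and 6.47 CPM. That is 2.2-fold lower (interval 1.63 to 2.98). The gene lies on chromosome 4, from 99656299 to 99658671 on the plus strand, among 29 such neighbours with a median log2 ratio of -0.02. The other FoxD genes were near the floor of detection: Foxd1 had 6 and 2 counts, Foxd2 0 and 2, and Foxd4 0 and 1.

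Foxh1, which brings SMAD proteins to Nodal target genes, came just short of the rule. Its counts were 377 and 192 (36.2 and 18.6 CPM), 1.95-fold lower (interval 1.64 to 2.33). Among the 14 Nodal partners and targets listed for Foxh1, 11 were measured. Of these, 3 were at least 2-fold lower (4.02% of all genes) and 0 higher (11.8%). The 3 include the Nodal antagonist genes Lefty2 (2146 and 336 counts, 6.35-fold lower, interval 5.66 to 7.14) and Lefty1 (1062 and 478 counts, 2.21-fold lower, interval 1.98 to 2.47). The median log2 ratio of the list was -0.22, in a range from -2.67 to 0.40, against -0.01 for all genes. A ratio below 1 was found for 8 of the 11 and above 1 for 3 (7 and 4 with library totals). Among those above 1 were Acvr1b (632 and 831 counts) and Smad3 (461 and 547). Nodal itself had 848 and 725 counts, a log2 ratio of -0.22.

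Among the 12 pluripotency partners listed for Foxd3, 2 were higher (11.8% of all genes) and 0 lower (4.02%) by the 2-fold rule. The median log2 ratio was 0.03. The 2 were Otx2, a homeobox factor of formative cells, at 174 and 594 counts, and Dppa3, a gene of naive and germ cells, at 52 and 104 counts (log2 ratio 0.94, short of the rule, with 0.5 CPM added). Pou5f1, which encodes OCT4, had 11373 and 5914 counts, a level 1.91-fold lower (interval 1.85 to 1.97) that did not meet the rule. The summed level of the stem cell markers given above was lower as well, with markers on both sides of 1. That sum includes Pou5f1 itself and a gene of the Nodal list. The part of these markers in the ratios of Foxd3 and Foxh1 was not tested.

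**Figure D2:**
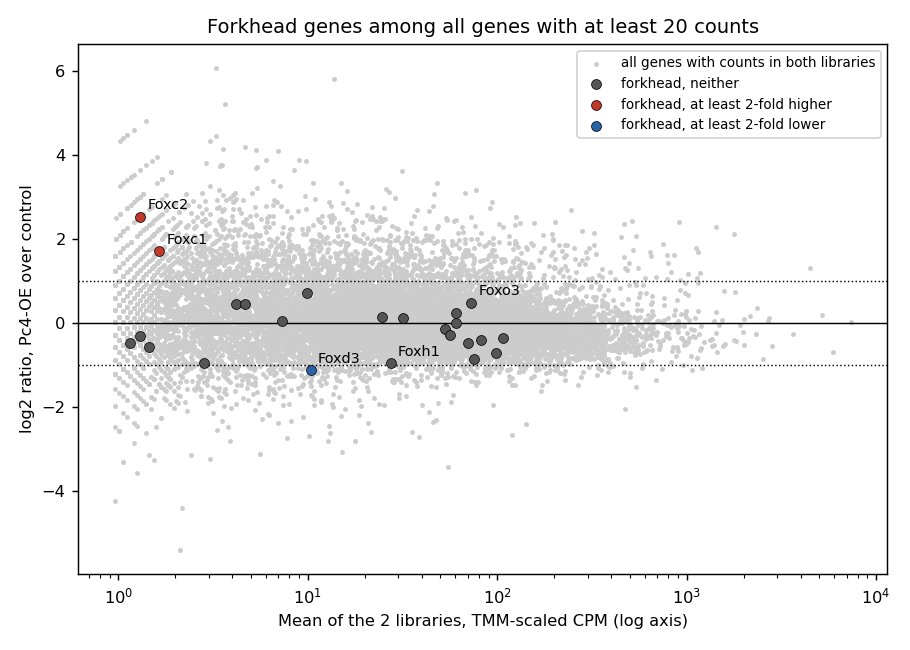
Log2 ratio against the mean TMM-scaled CPM of both libraries (log axis) for genes with at least 20 counts summed and a count in each library (grey) and for 24 measured forkhead genes (coloured by the 2-fold rule, dotted lines). Foxc1 and Foxc2 lie among thinly counted genes, where the grey points spread widely, and the 10 forkhead genes with at least 1000 counts summed lie between the dotted lines.

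The FoxP subfamily, transcriptional repressors that pair through a leucine zipper, was lower in its 2 measured members. Foxp1 had 1013 and 550 counts, 1.83-fold lower (interval 1.65 to 2.03). Foxp4 had 1280 and 777 counts, 1.64-fold lower (interval 1.5 to 1.79). Both intervals lie below a ratio of 1, and neither gene reached 2-fold. The ratio of Foxp4 divided by that of Foxp1 was 1.12 (interval 0.973 to 1.29), so the 2 genes did not separate beyond counting error. The table counts genes, so splice forms of Foxp1 cannot be told apart. Foxp2, known for its role in speech circuits, had 2 and 3 counts, and Foxp3, the factor of regulatory T cells, had 8 and 7. Summed over the subfamily, FoxP took 23.3% of all forkhead counts in the control-labelled library and 16.2% in the Pc4-OE-labelled library, and its summed level had a log2 ratio of -0.78 (interval -0.87 to -0.68).

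FoxO genes, which insulin and growth factor signalling through AKT keeps out of the nucleus, differed among themselves while their sum was near equal. The summed counts were 2161 and 2167, a ratio of 1.01 (interval 0.95 to 1.07). Foxo3 had 634 and 880 counts, 1.40-fold higher (interval 1.26 to 1.55). Foxo4, on chromosome X, had 855 and 606 counts, 1.40-fold lower (interval 1.26 to 1.56). Foxo1 had 631 and 625 counts, a ratio of 0.997 (interval 0.891 to 1.11), and Foxo6 had 41 and 56. The share of Foxo3 in the FoxO counts was 29.3% (exact binomial interval 27.4% to 31.3%) in the control-labelled library and 40.6% (38.5% to 42.7%) in the Pc4-OE-labelled library. Foxo4 held 39.6% (37.5% to 41.7%) and 28.0% (26.1% to 29.9%). The ratio of Foxo3 divided by that of Foxo4 was 1.96 (interval 1.69 to 2.27), a value that does not depend on library scaling. Foxo3 also stood above Foxo1 (1.40, interval 1.20 to 1.63), and Foxo1 above Foxo4 (1.40, interval 1.20 to 1.63).

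The pathway around FoxO was described with separate lists. Of 21 measured genes upstream of FoxO or acting on it, Irs2 was higher and Skp2 lower by the 2-fold rule, and the median log2 ratio was -0.08. Irs2, an insulin receptor substrate that FoxO proteins also induce, had 73 and 185 counts (2.55-fold higher, interval 1.93 to 3.39). Skp2, a ubiquitin ligase subunit that targets FoxO1, had 1161 and 435 counts (2.65-fold lower, interval 2.37 to 2.97). Of 21 measured FoxO target genes, 7 met the 2-fold rule upward (11.8% of all genes) and 0 downward (4.02%). The median log2 ratio was 0.56 against -0.01 for all genes. A ratio above 1 was found for 16 of the 21 and below 1 for 5. These were 17 and 4 with library totals, and 15 and 5 with DESeq2 size factors. Among those below 1 were Sod2 (1637 and 1070 counts) and Sesn1 (428 and 310). Txnip, a thioredoxin inhibitor, had 3337 and 10032 counts, 3.02-fold higher (interval 2.91 to 3.15). Bcl6, a transcriptional repressor, had 103 and 366 counts, Fbxo32, a muscle ubiquitin ligase, 40 and 114, and Il7r, a lymphocyte cytokine receptor, 7 and 43. The targets G6pc, Rag1 and Pck1 had 0 counts under the control label and fewer than 20 counts summed, so they have no ratio. The fibroblast and macrophage markers lay in the same direction as the 7 targets, and their part was not tested.

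Foxm1, which drives genes of the G2 phase and mitosis, had 970 and 727 counts, 1.33-fold lower (interval 1.20 to 1.46). All 20 measured genes of its G2/M list had a ratio below 1 (19 of 20 with library totals), as did 50.7% of all genes. Their median log2 ratio was -0.34. Only Skp2, which also stands in the FoxO list, was at least 2-fold lower.

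FoxK genes, repressors that respond to nutrients, lay on the same side. Foxk2 had 1250 and 966 counts, 1.29-fold lower (interval 1.18 to 1.40). Foxk1, on chromosome 5, had 584 and 523, with an interval that holds 1 (ratio 0.901, 0.799 to 1.02). The 105 neighbours of Foxk1 had a median log2 ratio of -0.31, close to that of the other genes of chromosome 5 as a whole (-0.33). The ratio of Foxk1 divided by that of Foxk2 was 1.16 (interval from just under 1 to 1.34). None of the 11 measured chromatin partners listed for FoxP and FoxK reached 2-fold, and their median log2 ratio was -0.23.

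The FoxN genes spread in both directions. Foxn4, a factor of retinal and spinal interneurons, had 78 and 127 counts, 1.64-fold higher (interval 1.23 to 2.2). It too lies on chromosome 5, with a median log2 ratio of -0.31 over 94 neighbours and -0.33 over the chromosome. Foxn2 had 649 and 525 counts, 1.23-fold lower (interval 1.09 to 1.38). Foxn3, a repressor with roles at cell cycle checkpoints, had 245 and 268 counts, with an interval that holds 1. All 3 pairs separated, the widest being Foxn4 over Foxn2 at 2.01 (interval 1.47 to 2.77). Foxn1, the thymic epithelial factor, had 3 counts in each library.

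FoxJ genes were close to equal. Foxj3 had 579 and 673 counts (ratio 1.17, interval 1.04 to 1.31) and Foxj2 320 and 343. Foxj1, the master regulator of motile cilia, had 75 and 77 counts (ratio 1.03, interval 0.742 to 1.44). Its listed cilia genes went both ways: by the 2-fold rule 1 of 11 measured was higher (11.8% of all genes) and 3 were lower (4.02%). Their median log2 ratio was -0.46. The dynein intermediate chain gene Dnaic1 had 31 and 91 counts, while its partner Dnaic2 had 98 and 30. Hydin, a central pair component, had 881 and 434 counts (log2 ratio -0.97 with library totals, which misses the rule). The radial spoke gene Rsph4a had 18 and 5 counts. At its depth of 20 to 99 counts summed, 8% of all genes were lower.

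Endoderm and other tissue factors were thinly counted. The pioneer factor genes Foxa1, Foxa2 and Foxa3 had 10 and 5, 1 and 4, and 14 and 10 counts. Of 7 measured endoderm genes listed with FoxA, 3 were higher (11.8% of all genes) and 1 lower (4.02%) by the 2-fold rule. Their median log2 ratio was 0.79, in a range from -1.08 to 1.94. Dab2, an endocytic adaptor, went from 249 to 950 counts and the receptor gene Cxcr4 from 18 to 42. Gata4 had 23 and 46 counts and Hnf4a 70 and 33, and neither met the rule with 0.5 CPM added (log2 ratios 0.87 and -0.97). Cxcr4 and Gata4 lie at 20 to 99 counts summed, where 22.4% of all genes were higher. Foxi3, a factor of pharyngeal and ectodermal tissue, had 37 and 50 counts. Foxr1 had 39 and 20 counts, 1.94-fold lower (interval 1.10 to 3.51), and Foxr2, on chromosome X, had 18 and 12. Of 10 measured Hedgehog pathway genes listed with FoxF and FoxL, Wnt5a was higher (225 and 718 counts) and Bmp4 lower (822 and 298 counts). Over all genes 11.8% were higher and 4.02% lower. The list had a median log2 ratio of 0.01.

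The remaining genes were at or near 0. Foxe1, the thyroid factor, had 3 and 0 counts, and Foxl2, the ovarian factor, had 1 and 2. Foxb1, Foxb2, Foxe3, Foxf2, Foxi1 and Foxi2 had 0 counts in both libraries. A count of 0 allows up to 3 counts, or 0.288 CPM under the control label and 0.290 CPM under the Pc4-OE label. Together the 19 genes below 20 counts held 36 and 44 counts, of 9904 and 8235 for the family.

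**Figure D3:**
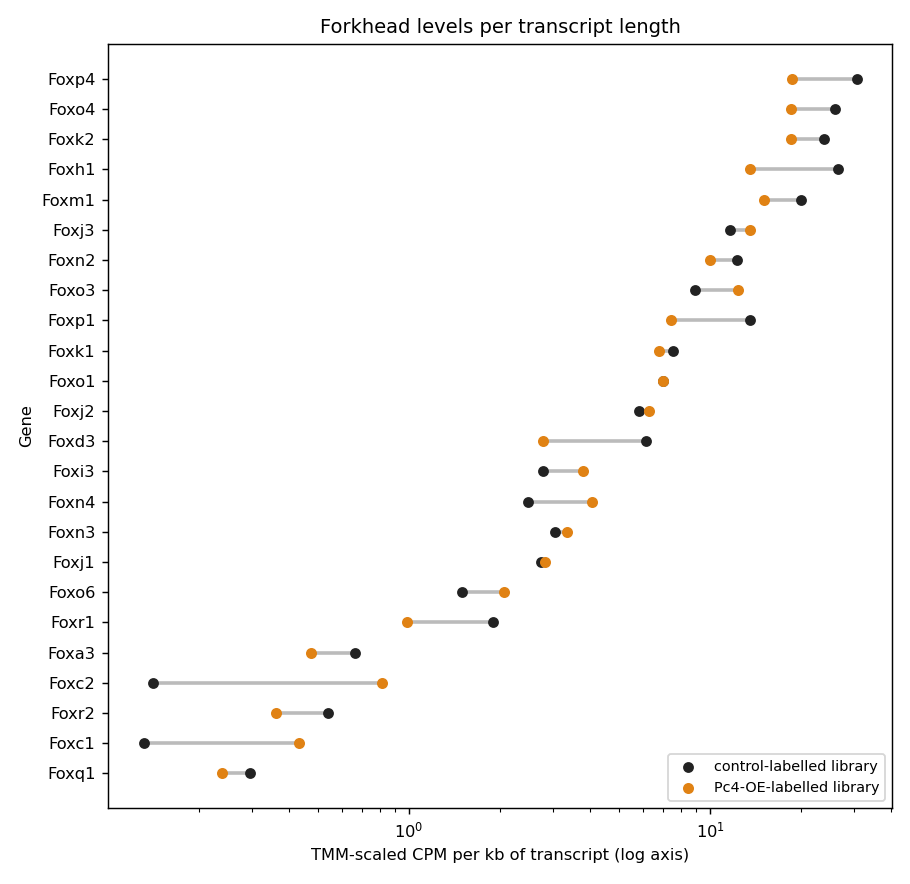
TMM-scaled CPM per kb of the longest coding transcript (log axis) for 24 measured forkhead genes, ordered by the mean of both libraries, with black points for the control-labelled and orange points for the Pc4-OE-labelled library. Foxp4 stands highest at 30.7 and 18.8, and Foxc2 and Foxc1 stand below 1 in both libraries.

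Per kb of transcript, the measured genes spanned a wide range of levels. Foxp4 was highest in the control-labelled library at 30.7 CPM per kb, followed by Foxh1 (26.5), Foxo4 (26), Foxk2 (23.9) and Foxm1 (20.0). In the Pc4-OE-labelled library Foxp4 (18.8), Foxk2 (18.6) and Foxo4 (18.5) were nearly level, and Foxh1 stood at 13.6. Foxd3 was at 6.12 and 2.79 CPM per kb. Foxc2 was at 0.141 and 0.815, and Foxc1 at 0.131 and 0.43. These levels rest on 1 annotated transcript per gene.

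**Figure D4:**
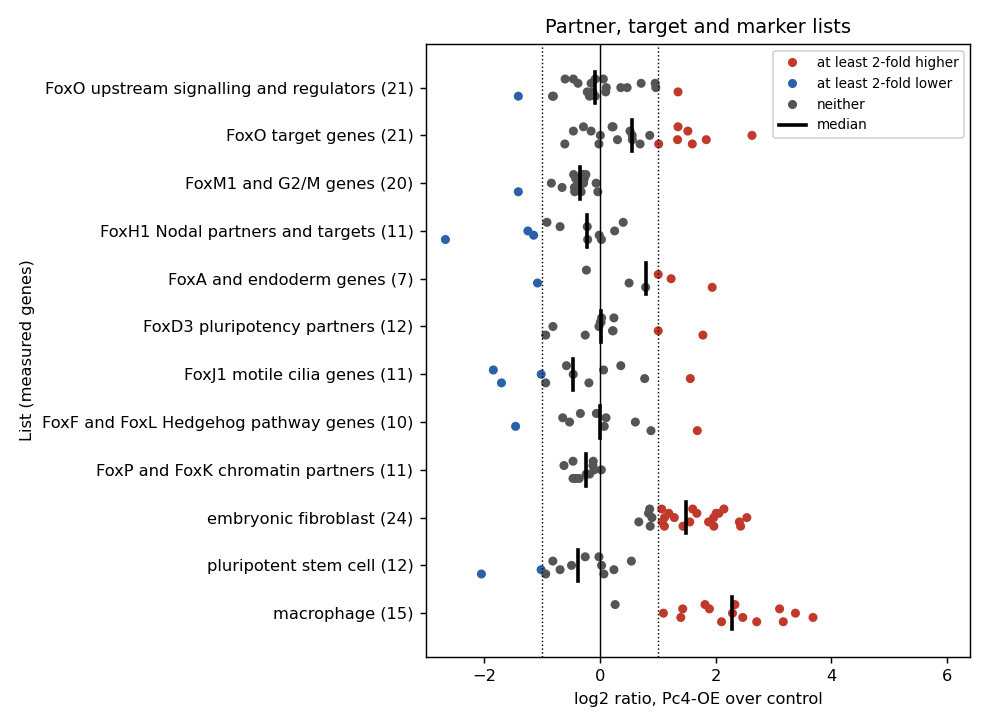
Log2 ratios of the measured genes of each list of forkhead partners and targets, and of the fibroblast, stem cell and macrophage marker lists, with the number measured in brackets, black bars for medians and colours for the 2-fold rule. The FoxO targets (median 0.56) lie mostly to the right of 0 and the 20 G2/M genes, on this scaling, to the left (19 of 20 with library totals), and the fibroblast and macrophage markers lie farthest to the right.

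Across the 25 measured genes, 14 had a ratio below 1 and 11 above, 13 and 12 with library totals, where Foxo1 changes side. Their median log2 ratio was -0.15, against -0.01 for all genes. The interval lay wholly below 1 for 9 genes (33.1% of all genes) and above 1 for 6 (31.2% of all genes). These counts of 9 and 6 are of the 25 measured genes. Of 16 pairs within subfamilies, 7 had an interval of the ratio of ratios that left out 1, all in the FoxN and FoxO subfamilies, each interval taken alone.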

How the data were processed

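Per the submitters' processing notes, reads were aligned with STAR 2.4.1c and counted with featureCounts on mm10. The authors deposited integer counts of reads for each gene, with a column for each library. The annotation, strand setting and handling of multi-mapping reads were not given in the sources used here. Per the labels' protocols, libraries were stranded TruSeq mRNA. Each column was matched to a sample by its title.

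CPM were computed with TMM factors (edgeR 4.0.16). Ratios used no pseudocount and at least 20 counts summed, with exact Clopper-Pearson intervals. Pairs within a subfamily were compared by the plain ratio of their ratios, with the exact interval of the conditional odds ratio (scipy 1.17.1). No test was possible with 1 library per group. Every member was to be named; 1 member and 1 list gene are not reported here by name. Of each list, up to 4 genes that met the 2-fold rule could be named, by the interval bound nearest to 1, besides Sub1, Pou5f1 and Col1a1. Nodal, Acvr1b, Smad3, Fgf4, Nanog, Sox2, Sod2, Sesn1 and the genes at 0 were named outside this rule, after their values were seen. Members, lists and rules were chosen with earlier results of these data known. Alternatives were library totals, DESeq2 1.42.0 size factors, 0.5 CPM added, a 1.5-fold rule, no count minimum and a minimum of 100 counts. The calculation was tested on simulated Poisson counts.

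Positions came from RefSeq and GENCODE M21 tables of GRCm38, which is the assembly behind mm10. RefSeq positions matched all 44 members by gene ID.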

Additional observations from a re-analysis of the deposited data

How the results depend on the processing

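Every forkhead gene and subfamily sum kept its side of the 2-fold rule with library totals and with DESeq2 size factors, and every forkhead gene did with 0.5 CPM added. The counts of genes moved more with the thresholds. With at least 100 counts summed, 0 forkhead genes were higher (all 3, Foxc1 and Foxc2 among them, drop out by their counts) and 1 was lower, and over all genes 1095 were higher and 366 lower, against 1673 and 572. With a 1.5-fold rule, 5 forkhead genes were lower instead of 1, and 2673 and 1878 of all genes were higher and lower. The median of the T cell markers, which rests on 2 measured genes, was -0.86 with 0.5 CPM added and 0.0087 with no count minimum, against -0.94. No paired analysis was possible because each group holds 1 library, and no library could be left out. Depth limits the 19 forkhead genes below 20 counts, which have no ratio.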

Other observations

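Markers of other cell types that forkhead genes are known from were also measured. Over all genes 11.8% were at least 2-fold higher and 4.02% lower. At 20 to 99 counts summed these shares were 22.4% and 8%. Of 7 endothelial markers, 0 were at least 2-fold higher and 1, Esam, was lower, with summed levels of 108.1 and 87.4 CPM under the control and Pc4-OE labels and Emcn at 0 in both. Of 5 pericyte and smooth muscle markers, Cspg4 was higher (82 and 175 counts). Of 8 epithelial markers, 4 were higher and 0 lower, among them Krt7 (15 and 87 counts) and Cldn4 (450 and 1498 counts). Of 6 measured trophoblast markers 5 were higher, such as Tfap2c (519 and 1346 counts). Krt7 is one of these 5 and also one of the 4 epithelial genes, and others of the 5 had only 20 to 99 counts summed. Of 4 motile cilia markers 1, Hydin, was lower. Of 8 T cell markers 2 were measured and neither met the rule, with Ctla4 and Cd3g at 0 in both libraries.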
